A study of Mus musculus with 6 samples.

Results

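The 45 genes described here encode the transport, sorting and gate machinery of the primary cilium: intraflagellar transport (IFT) proteins, the BBSome and its chaperonins, ciliary ARL GTPases, transition zone proteins and a pair of basal body proteins. They were chosen by name, and all 45 have a row among the 24421 genes of the count table; 44 had enough reads to be tested, against 13548 genes in all. RNA was sequenced from LK cells, the lineage-negative, c-Kit-positive fraction of C57BL/6 bone marrow, in which most cells are committed progenitors of the blood. The groups were ASXL1-MT-KI mice, which carry a knock-in of a mutant form of the chromatin regulator ASXL1, and their wild type littermates, 3 libraries each, from animals 8 to 12 weeks old. The labels do not give the mutation carried, the promoter of the knock-in allele, the sex of the animals or the number of animals per library; the design text speaks of independent experiments. The comparison asks whether ciliary genes differed broadly between ASXL1-MT-KI and wild type cells or only singly.

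A primary cilium is a microtubule rod that most resting vertebrate cells can grow from a centriole, and it serves as the site of hedgehog signalling. IFT-B trains, driven by kinesin-2, carry cargo to the tip, and IFT-A together with the dynein-2 motor brings trains back and admits membrane proteins. The BBSome, an octameric coat in ciliated cells, removes receptors from the cilium, and the transition zone at its base controls what passes in and out. Several of these proteins also work outside cilia, and IFT20, for instance, acts at the Golgi and in lymphocytes at the immune synapse.

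Asxl1 itself averaged 320.1 ± 8.71 CPM in ASXL1-MT-KI cells and 170.4 ± 5.43 CPM in wild type cells (SD, n = 3 each), without overlap. Libraries held 40462168 to 47579480 counts in ASXL1-MT-KI and 40739398 to 47242076 in wild type. The LK markers Kit (382.8 ± 11.7 CPM in ASXL1-MT-KI cells and 406.4 ± 41.0 CPM in wild type cells; SD, n = 3 each) and Mpo were abundant in both groups. CPM are counts scaled to a common library size, here adjusted between libraries by TMM, which assumes that most genes do not differ. Of the 7 LK markers Cd34 alone passed, lower at 302.7 ± 6.56 CPM in ASXL1-MT-KI cells and 375.2 ± 22.2 CPM in wild type cells, and the list summed to 15095 to 15758 CPM in ASXL1-MT-KI libraries and 14656 to 16346 CPM in wild type libraries. Of 8 markers of multiciliated cells, which carry many motile cilia in airway and oviduct, 6 were under 1 CPM in both groups, and Hydin had no count at all. Their sum was 3.83 to 4.31 CPM in ASXL1-MT-KI and 3.84 to 5.62 CPM in wild type libraries. Stromal markers summed to 29.1 to 32.1 CPM in ASXL1-MT-KI libraries and 34.5 to 41.1 CPM in wild type libraries, mostly from Pdgfrb. By group mean 8 of 10 were under 1 CPM in both groups, and Col3a1 was at 0. Wild type 1 held the most Col1a1 and Col1a2, at 2.31 and 3.29 CPM, against at most 0.17 and 1.26 CPM in any other library. Endothelial markers summed to 90.1 to 129.8 CPM in ASXL1-MT-KI libraries and 86.1 to 113.3 CPM in wild type libraries. Most of that was Vwf, at 79.1 ± 19.3 CPM in ASXL1-MT-KI cells and 81.5 ± 13.7 CPM in wild type cells. Plvap passed, higher in ASXL1-MT-KI cells. The list of lineage antigens summed to 215.0 to 245.2 CPM in ASXL1-MT-KI libraries and 236.7 to 289.3 CPM in wild type libraries. Most of that was Ptprc, which was lower, at 159.1 ± 10.9 CPM in ASXL1-MT-KI cells and 204.1 ± 22.5 CPM in wild type cells. Counts per gene do not separate the transcript forms of Ptprc, so these sums do not measure mature cells. Of the mature B and T cell markers Cd79a was lower in ASXL1-MT-KI cells. That list summed to 20.2 to 22.4 CPM in ASXL1-MT-KI libraries and 18.6 to 21.6 CPM in wild type libraries. The part of these shifts in the results on ciliary genes was not tested. In bulk RNA, fewer cells of a type and less RNA per cell cannot be told apart.

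Single ciliary genes passed the test, in both directions. In ASXL1-MT-KI cells 2 of the 44 tested genes rose, Bbs12 and Ttc21b, and 3 fell, Ift122, Tctn2 and B9d2, at an adjusted p under 0.05 (quasi-likelihood test of edgeR, with p-values adjusted over all tested genes by Benjamini-Hochberg). That is 11.4% of the tested members, beside 16.0% of all genes tested; 8.29% of all genes rose and 7.69% fell. At an unadjusted p under 0.05 in edgeR there were 10 members (22.7%), 2 higher and 8 lower. Over all genes it was 30.4%, with 2194 of the 13548 higher and 1927 lower. Over the 44 genes the log2 fold change had a median of -0.03, against 0.00 over all genes, and the median size of the change, whatever its sign, was 0.13 in both. That sign turned when libraries were scaled by total counts, to a median of 0.02, and the median of all genes then shifted to 0.05. Groups did not overlap for 12 of the 44 genes, or 27.3%, with ASXL1-MT-KI higher in 2 and lower in 10; over all genes 35.2% did not overlap, 18.0% with ASXL1-MT-KI higher and 17.2% lower.

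**Figure D1:**
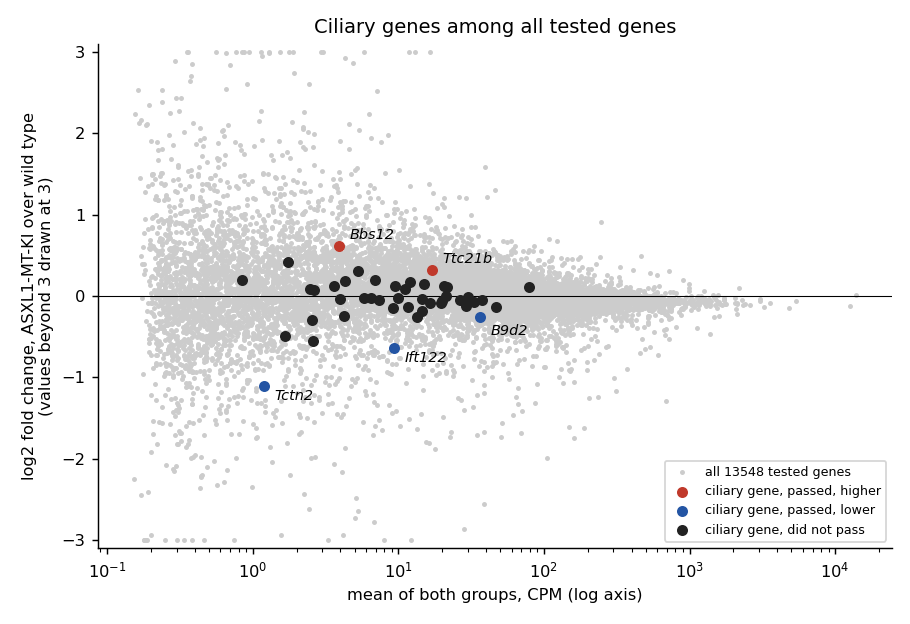
Mean level in CPM (log axis) against the log2 fold change of ASXL1-MT-KI over wild type for all 13548 tested genes (grey) and the 44 tested ciliary genes (red, passed and higher; blue, passed and lower; black, did not pass). The ciliary genes lie between -1.10 and 0.62, around the middle of the grey cloud.

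These genes were mostly of low to middle abundance. In 4 equal classes of mean CPM over all tested genes, from the lowest up, 11, 26, 6 and 1 of the 44 were placed, and the share of all genes called in those classes was 15.5%, 21.3%, 14.4% and 12.7%. Standard errors of the log2 fold changes ran from 0.05 for Ift52 and Ift20 to 0.41 for Bbs10. For 33 of the 39 genes that did not pass, the 95% interval of the fold change lay within 1.5-fold in either direction, and for 38 within 2-fold. The exception at 2-fold was Bbs10, with an interval of 0.69 to 2.58; the others outside 1.5-fold were Ift81, Wdr35, Dync2li1, B9d1 and Dzip1. An interval this narrow bounds the difference without showing that the levels are equal.

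**Figure D2:**
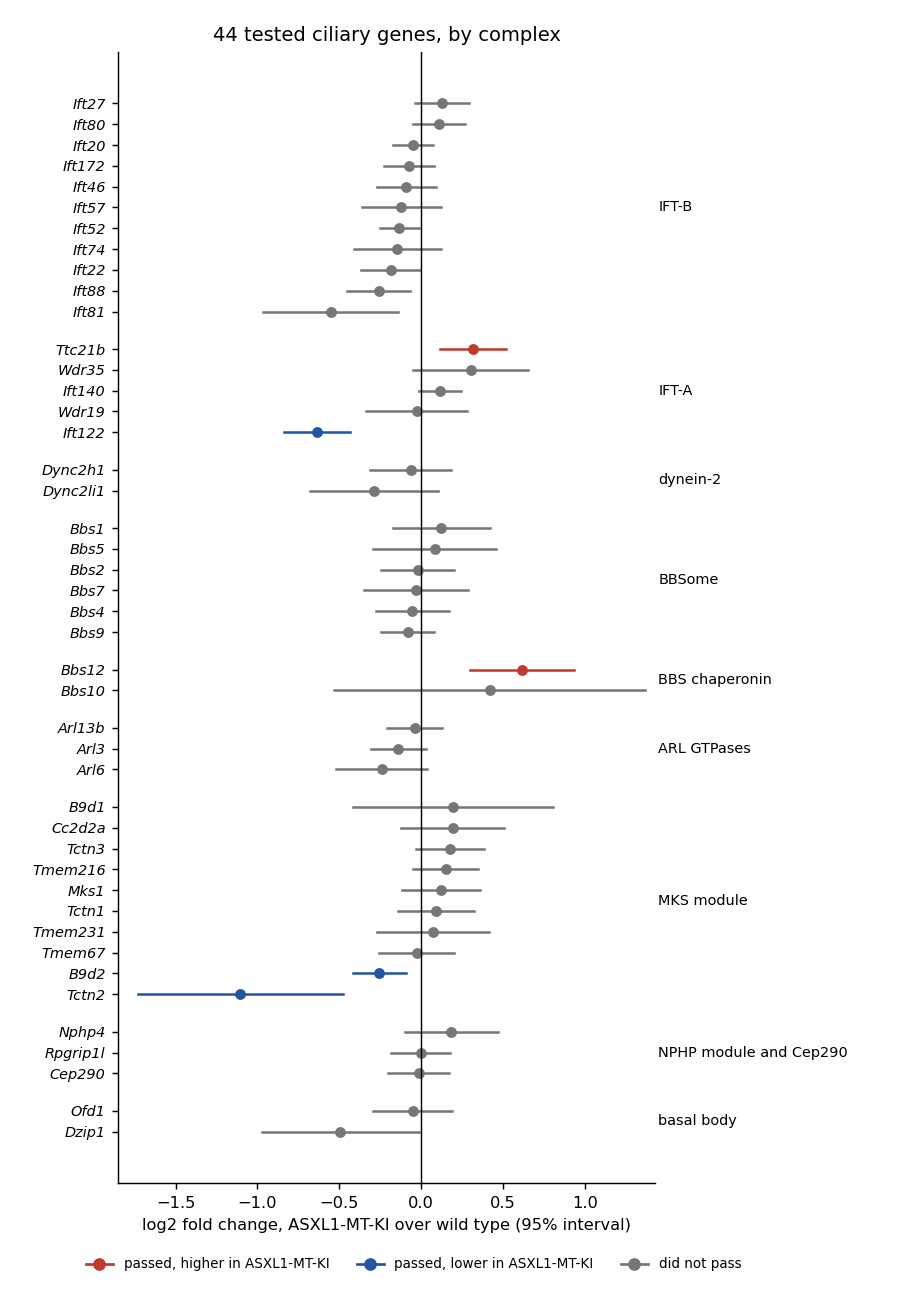
Log2 fold change of ASXL1-MT-KI over wild type (points) with its 95% interval (bars) for each tested gene, grouped by complex. Bbs12 and Ttc21b are the red points to the right of 0; Ift122, B9d2 and Tctn2 are the blue points to the left.

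Per length of transcript, B9d2 was the most abundant of the 45 in both groups, at 32.3 CPM per kilobase of its longest annotated transcript in ASXL1-MT-KI cells and 38.5 in wild type cells, followed by Ift20 at 31.5 in ASXL1-MT-KI cells and 32.6 in wild type cells. Ift52, at 19.8 in ASXL1-MT-KI cells and 21.7 in wild type cells, came next. The median of the 45 was 2.88 CPM per kilobase in ASXL1-MT-KI cells and 2.72 in wild type cells, beside 8.35 in ASXL1-MT-KI cells and 8.26 in wild type cells over all tested genes with a length. In ASXL1-MT-KI cells 8 of the 45 lay above that general median, and in wild type cells 7. At the low end stood Tctn2 at 0.22 CPM per kilobase in ASXL1-MT-KI cells and 0.48 in wild type cells, Dzip1 at 0.30 in ASXL1-MT-KI cells and 0.43 in wild type cells, and Ift43 at 0.30 in ASXL1-MT-KI cells and 0.16 in wild type cells. The subunits of a complex were not at equal levels per length: within IFT-A, Ift140 stood at 11.9 CPM per kilobase in ASXL1-MT-KI cells and 10.9 in wild type cells, and Wdr19 at 0.92 in ASXL1-MT-KI cells and 0.93 in wild type cells.

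**Figure D3:**
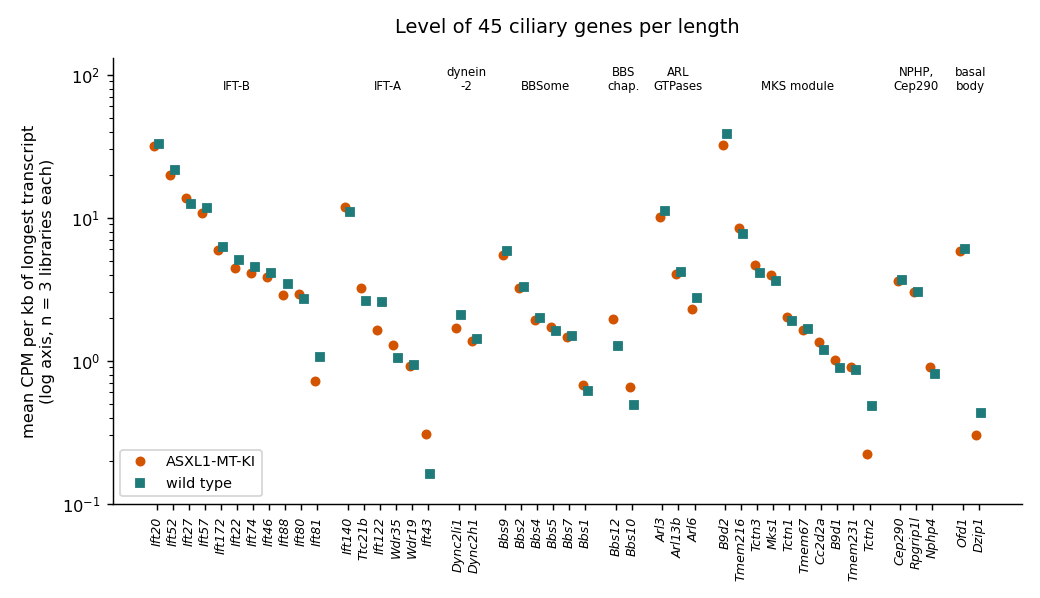
Mean CPM per kilobase of the longest annotated transcript (log axis) for each of the 45 genes, by complex and from high to low in wild type, with ASXL1-MT-KI (circles) left of wild type (squares), n = 3 libraries each. Levels span from 0.16 for Ift43 to 38.5 for B9d2 in wild type, a far wider range than the distance between the symbols of 1 gene.

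IFT-A was the complex with subunit genes that passed in both directions. Ift122, on chromosome 6 from 115853470 to 115926699 (GENCODE M21 coordinates, GRCm38, which is mm10), encodes a core subunit of IFT-A. It stood at 7.56, 7.06 and 7.28 CPM in ASXL1-MT-KI libraries 1 to 3, against 11.3, 10.8 and 11.9 CPM in wild type libraries 1 to 3. Every ASXL1-MT-KI library was below every wild type library, and the gap was wider than the range within either group. The log2 fold change was -0.64 ± 0.09 (SE; adjusted p = 0.00179, edgeR), a level 35.7% lower in ASXL1-MT-KI cells, and the call held in each alternative run, including the omission of any 1 library, with an adjusted p of at most 0.0119.

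Ttc21b, on chromosome 2 from 66184327 to 66256617, encodes IFT139, a peripheral subunit of the same complex. Its level was 17.7, 19.6 and 18.9 CPM in ASXL1-MT-KI libraries and 15.2, 13.5 and 16.5 CPM in wild type libraries, again without overlap but with a gap narrower than the range within either group. It rose by a log2 fold change of 0.32 ± 0.09 (adjusted p = 0.0407). The call was lost when any ASXL1-MT-KI library, wild type 1 or wild type 2 was left out (adjusted p = 0.0616 to 0.148), and held without wild type 3.

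The other IFT-A genes did not pass. Ift140, a core subunit, was at 85.0, 85.2 and 76.8 CPM in ASXL1-MT-KI libraries and 78.5, 75.1 and 74.2 CPM in wild type libraries, with overlap (95% interval of the fold change 0.99 to 1.19). Wdr35, which encodes IFT121, was at 6.04, 6.26 and 5.11 CPM in ASXL1-MT-KI libraries and at 5.43, 4.91 and 3.77 CPM in wild type libraries, also with overlap (0.30 ± 0.16 on the log2 scale, adjusted p = 0.226). Wdr19, the gene of the core subunit IFT144, gave a log2 fold change of -0.03, which turned positive with total counts. Ift43 had 15, 14 and 6 counts in ASXL1-MT-KI libraries and 6, 7 and 5 in wild type libraries, too few for the filter; the ratio of summed counts, ASXL1-MT-KI over wild type and scaled for library size, was 1.91, with a 95% interval of 1.05 to 3.58 that covers counting error only.

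Of IFT-B genes outside the 45, Traf3ip1 and Ttc30a1 passed in edgeR, higher in ASXL1-MT-KI cells, as described below. None of the 11 IFT-B genes among the 45 passed the test in edgeR, DESeq2 or limma-voom. Of these 11, 4 (36.4%) had an unadjusted p under 0.05 in edgeR, namely Ift81, Ift88, Ift52 and Ift22, all lower in ASXL1-MT-KI cells. Over all genes 30.4% did in either direction, with 1927 of 13548 lower in ASXL1-MT-KI cells. The log2 fold change was below 0 for 9 of the 11 (81.8%, beside 49.8% of all genes) and the median was -0.12; with total counts 8 were below 0 and the median was -0.07. Ift88, a core subunit whose loss gives the classic mouse model of polycystic kidney, was at 12.1, 12.5 and 11.9 CPM in ASXL1-MT-KI libraries and 15.3, 13.1 and 15.3 CPM in wild type libraries. Ift81, part of the tubulin-binding module of the train, was at 1.71, 2.17 and 2.48 CPM in ASXL1-MT-KI libraries and at 3.12, 2.70 and 3.50 CPM in wild type libraries. Neither gene's groups overlapped, though wild type 2 lay close to the ASXL1-MT-KI values in both. The log2 fold changes were -0.26 ± 0.09 and -0.55 ± 0.18, with adjusted p of 0.0729 and 0.073 (edgeR); with the replicate number as a block both passed (adjusted p = 0.0288 for Ift88 and 0.0159 for Ift81), in a fit that called 30.5% of all genes. Without wild type 2 Ift88 passed too (adjusted p = 0.0339).

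The remaining IFT-B genes among the 45 changed less than Ift88 and Ift81. Ift52, the scaffold of the core, and Ift22, a small GTPase, gave log2 fold changes of -0.13 and -0.19 without overlap of the groups. Their unadjusted p in edgeR was 0.032 and 0.0454, and their adjusted p 0.124 and 0.155. Ift20 gave -0.05, also without overlap. In all, 5 of the 11 IFT-B genes were lower in ASXL1-MT-KI without overlap, beside 17.2% of all genes. Ift46, Ift57, Ift74 and Ift172 lay between -0.14 and -0.08. Ift27, the GTPase that links trains to BBSome exit, and Ift80 were the 2 with positive values, at 0.13 and 0.11. Summed over the 11 genes, IFT-B transcripts came to 235.4, 239.9 and 237.6 CPM in ASXL1-MT-KI libraries and 253.6, 242.1 and 257.9 CPM in wild type libraries. For the motor that returns trains, the heavy chain gene Dync2h1 was at 17.8, 18.5 and 22.0 CPM in ASXL1-MT-KI libraries and at 18.8, 19.0 and 23.2 CPM in wild type libraries, high in number 3 of both groups. Dync2li1, the light intermediate chain gene, was at 2.69, 1.95 and 2.24 CPM in ASXL1-MT-KI libraries and at 2.81, 2.51 and 3.104 CPM in wild type libraries, with overlap (-0.29 ± 0.17 on the log2 scale).

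**Figure D4:**
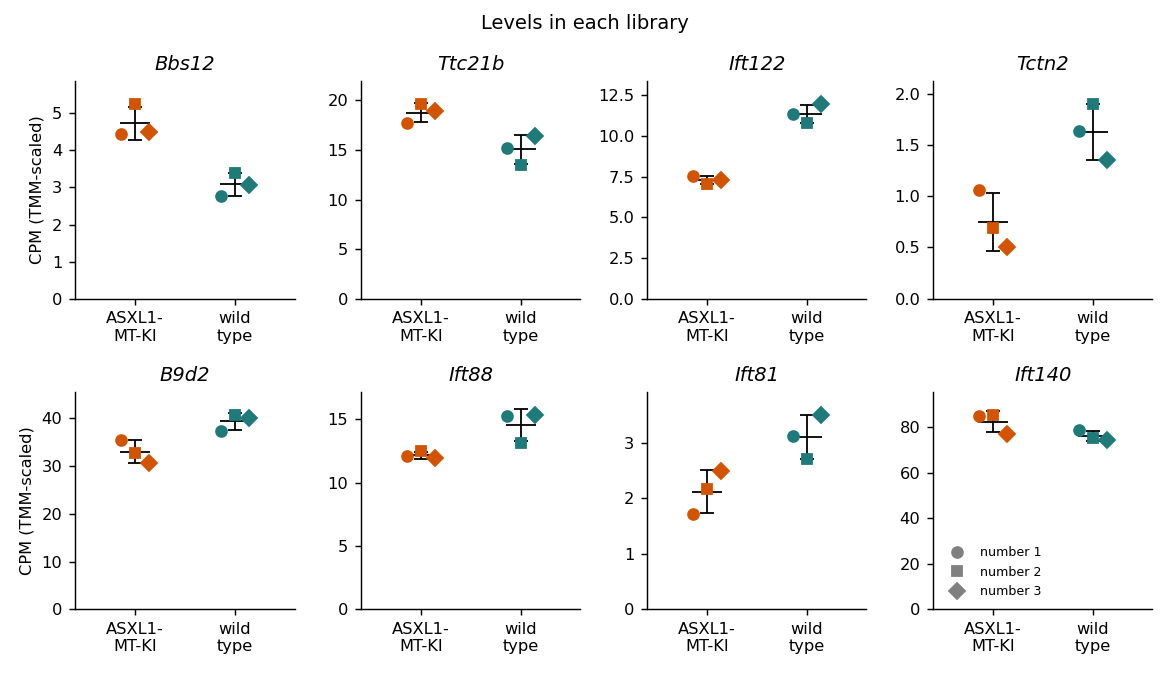
CPM in each library for the 5 genes that passed and for Ift88, Ift81 and Ift140, with ASXL1-MT-KI left and wild type right; symbols mark the library number, and bars the mean ± SD of 3 libraries. Groups are apart for all but Ift140, as for Ift122, at 7.06 to 7.56 CPM in ASXL1-MT-KI and 10.8 to 11.9 CPM in wild type.

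The chaperonin gene Bbs12 rose while the BBSome genes did not pass. Bbs12, on chromosome 3 from 37312554 to 37321453, encodes a chaperonin-like protein that helps to assemble the BBSome. It was at 4.44, 5.24 and 4.51 CPM in ASXL1-MT-KI libraries, against 2.77, 3.40 and 3.08 CPM in wild type libraries, with no overlap. The log2 fold change was 0.62 ± 0.14 (adjusted p = 0.0174), a level 53.4% higher, and the call was lost without ASXL1-MT-KI 2 (adjusted p = 0.0804) or wild type 1 (adjusted p = 0.0738). Bbs10, a related chaperonin gene, varied more within groups than between them: 1.15, 2.46 and 2.34 CPM in ASXL1-MT-KI libraries and 0.92, 1.16 and 2.39 CPM in wild type libraries (adjusted p = 0.545).

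The 6 BBSome subunit genes among the 45 lay between -0.08 and 0.12 on the log2 scale, with overlapping groups. Bbs9 and Bbs1, the subunit genes with the lowest p, gave -0.08 ± 0.07 and 0.12 ± 0.13. Bbs5 gave 0.08 ± 0.17, and Bbs2, Bbs4 and Bbs7 were nearer to 0. None of the 6 passed in edgeR, also at an unadjusted p under 0.05, in DESeq2 or in limma-voom. Their summed level was 46.9, 47.6 and 44.9 CPM in ASXL1-MT-KI libraries and 49.96, 47.3 and 45.7 CPM in wild type libraries. Arl6, the GTPase gene whose product recruits the BBSome to membranes, was at 4.04, 3.85 and 3.83 CPM in ASXL1-MT-KI libraries and at 4.25, 4.602 and 5.03 CPM in wild type libraries, without overlap (-0.24 ± 0.12 on the log2 scale, adjusted p = 0.227). Arl3, whose product releases lipid-modified cargo inside the cilium, was at 11.0, 11.2 and 11.3 CPM in ASXL1-MT-KI libraries and at 12.4, 12.1 and 12.3 CPM in wild type libraries, also without overlap (-0.14 ± 0.08, adjusted p = 0.250). Arl13b, the ciliary membrane GTPase gene that acts on Arl3, gave -0.04.

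Of the transition zone genes among the 45, those that passed were both lower. Transition zone genes outside the 45 passed in both directions and are described below. Tctn2 encodes a tectonic, one of the proteins at the ciliary membrane that form the gate, and lies on chromosome 5 from 124598749 to 124627738. It had 51, 31 and 21 counts in ASXL1-MT-KI libraries (1.06, 0.69 and 0.51 CPM), against 75, 87 and 55 counts in wild type libraries (1.63, 1.90 and 1.36 CPM). The groups did not overlap, and the spread within ASXL1-MT-KI was wide. The log2 fold change of -1.10 ± 0.28 was the largest in size of the 44 genes (adjusted p = 0.0267). The call was lost without ASXL1-MT-KI 2 or 3 or wild type 1 or 2 (adjusted p = 0.0629 to 0.0934).

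B9d2, on chromosome 7 from 25680780 to 25686558, encodes a B9 domain protein of the same gate complex. It was at 35.4, 32.8 and 30.6 CPM in ASXL1-MT-KI libraries and 37.3, 40.6 and 40.04 CPM in wild type libraries, with no overlap but a narrow gap. The log2 fold change was -0.25 ± 0.07 (adjusted p = 0.0396). It did not pass with total counts (adjusted p = 0.0799) or when any library other than ASXL1-MT-KI 1 was left out (adjusted p = 0.0634 to 0.118).

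This gate complex is called the MKS module after Meckel syndrome. Its other genes among the 45 gave no further call, in DESeq2 and limma-voom too. Of the 8 that did not pass in edgeR, 7 had log2 fold changes of 0.07 to 0.19 and Tmem67 gave -0.03. Tctn3, another tectonic gene, was at 14.1, 11.9 and 12.4 CPM in ASXL1-MT-KI libraries and 10.9, 12.0 and 11.1 CPM in wild type libraries (adjusted p = 0.229). Tmem216 was at 16.5, 14.05 and 16.7 CPM in ASXL1-MT-KI libraries and at 14.2, 13.7 and 14.7 CPM in wild type libraries (adjusted p = 0.286). Both showed overlap. Tctn1, Mks1, Cc2d2a, B9d1 and Tmem231 overlapped as well. In Tctn1 25.5% of the exonic bases are shared with exons of other genes on the opposite strand. Reads within the shared bases cannot be told apart from theirs in these libraries, which do not mark strand.

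Nphp4 was at 4.94, 4.47 and 4.31 CPM in ASXL1-MT-KI libraries and 3.83, 4.36 and 3.89 CPM in wild type libraries (0.18 on the log2 scale, adjusted p = 0.371). Cep290, which links the microtubules of the transition zone to the membrane, gave -0.02, and Rpgrip1l, a scaffold of the zone, gave -0.0033. At the basal body, Dzip1, known from zebrafish as a hedgehog pathway gene, was at 1.42, 1.55 and 1.21 CPM in ASXL1-MT-KI libraries and at 2.24, 1.48 and 2.17 CPM in wild type libraries. Wild type 2 lay within the ASXL1-MT-KI range, and the gene did not pass (-0.49 ± 0.21 on the log2 scale, adjusted p = 0.153); 28.4% of its exonic bases are shared with a gene on the opposite strand. Ofd1, a centriolar gene mutated in oral-facial-digital syndrome, was at 26.1, 29.0 and 23.2 CPM in ASXL1-MT-KI libraries and at 30.2, 23.7 and 27.3 CPM in wild type libraries and gave -0.05.

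Same-numbered libraries deviated together over the transcriptome, most for number 3 (correlation of deviations 0.52). In ASXL1-MT-KI 33 of the 44 genes were lower in number 3 than in the mean of numbers 1 and 2, with a median log2 difference of -0.07, and in wild type 19 were lower and 25 higher, with a median of 0.03. Without number 3 of both groups, Bbs12, Ttc21b, Ift122 and Tctn2 passed and B9d2 did not (adjusted p = 0.108, edgeR), with 17.8% of all genes called. Ift122 alone passed without ASXL1-MT-KI 2 (8.3% of all genes called) or without wild type 1 (8.25%). Leaving out ASXL1-MT-KI 1 gave 1 member higher and 3 lower (10.1% of all genes), ASXL1-MT-KI 3 gave 1 and 1 (12.5%), and wild type 2 gave 1 and 2 (13.3%). With the replicate number as a block 2 members rose and 5 fell, among 30.5% of all genes called, and at an adjusted p under 0.10 the same genes passed, 2 higher and 5 lower (23.0% of all genes). At a fold of at least 1.5 Bbs12 was higher and Ift122 and Tctn2 lower (6.55% of all genes).

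Ciliary genes are known targets of RFX transcription factors, which bind the X-box, a pair of inverted sites around a short spacer. Promoters of RefSeq (GRCm38.p6, 250 bases before to 50 after the gene start) were at hand for 40 of the 45 genes; Ift81, Ift80, Ift122, Tmem67 and Dync2li1 had none. X-box-like letters were searched on both strands as GTNNCC followed by GNAAC after 2, 3 or 4 bases, with N any base; no matches in a promoter overlapped. They occurred in 14 of the 40 genes (35.0%), in 4.98% of all genes with a promoter and in 5.8% of tested genes with one; as genes can have several promoters, 4.37% of all promoters held them. A match of letters is not a bound site. The matches below come from 8 genes that did not pass, out of the 14 with a match. Their likeness is no result, because the search pattern fixed many of their letters. They are shown 5′ to 3′ with the spacer in lower case and the inverted ends in capitals:
Tctn1: GTTGCCcgGGCAAC
Tctn3: GTTGCCaGGTAAC
Mks1: GTTGCCagGGGAAC
Bbs1: GTTGCCaaGGCGAC
Bbs4: GTCGCCcgGGAAAC
Bbs7: GTTGCCttGGAAAC
Tmem231: GTTGCCgtGGAGAC
Ift57: GTTGCCgtGGTGAC

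Tctn2 and B9d2, which fell, were among the 14 genes with a match, and Bbs12 and Ttc21b, which rose, were not. Log2 fold changes had a median of 0.02 for the 14 genes with a match and -0.03 for the 25 tested genes with a promoter but none. One promoter of each of the 4 genes is printed to set the members that moved side by side, with the X-box-like letters in capitals. In Tctn2 (chr5:124598499-124598798, plus strand) the match begins 62 bases before the gene start. In B9d2 (chr7:25680530-25680829, plus strand) it begins at base 17 of the gene; a second B9d2 promoter of the table (chr7:25680908-25681207, plus strand) holds none and is not printed. Bbs12 (chr3:37312304-37312603, plus strand) and Ttc21b (chr2:66256568-66256867, minus strand) hold none in this window:
Tctn2: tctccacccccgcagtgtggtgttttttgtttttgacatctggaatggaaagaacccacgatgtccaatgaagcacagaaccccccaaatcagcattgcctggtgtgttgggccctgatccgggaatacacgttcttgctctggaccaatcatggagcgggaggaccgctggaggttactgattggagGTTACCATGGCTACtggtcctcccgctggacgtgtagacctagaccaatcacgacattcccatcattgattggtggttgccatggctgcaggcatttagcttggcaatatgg
B9d2: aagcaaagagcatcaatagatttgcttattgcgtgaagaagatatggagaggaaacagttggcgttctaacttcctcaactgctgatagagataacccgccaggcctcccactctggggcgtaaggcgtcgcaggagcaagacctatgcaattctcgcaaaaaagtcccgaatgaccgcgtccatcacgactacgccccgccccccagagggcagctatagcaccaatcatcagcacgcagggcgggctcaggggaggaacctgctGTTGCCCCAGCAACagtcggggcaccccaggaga
Bbs12: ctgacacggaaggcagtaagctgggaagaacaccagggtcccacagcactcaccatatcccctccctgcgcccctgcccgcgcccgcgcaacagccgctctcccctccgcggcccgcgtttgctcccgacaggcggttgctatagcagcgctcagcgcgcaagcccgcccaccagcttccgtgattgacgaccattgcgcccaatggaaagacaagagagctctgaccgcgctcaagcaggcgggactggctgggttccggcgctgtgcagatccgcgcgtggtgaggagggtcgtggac
Ttc21b: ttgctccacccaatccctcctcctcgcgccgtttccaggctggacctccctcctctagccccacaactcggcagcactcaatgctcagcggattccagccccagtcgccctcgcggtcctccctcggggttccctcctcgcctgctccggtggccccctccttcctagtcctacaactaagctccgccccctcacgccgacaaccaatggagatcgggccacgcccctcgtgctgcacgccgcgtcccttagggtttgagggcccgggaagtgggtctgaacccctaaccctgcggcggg

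Other genes of the cilium, taken from lists of 121 names of which 94 were tested, gave 8 that rose and 4 that fell, 12.8% of those tested, beside 16.0% of all genes. At a fold of at least 1.5 there were 3 higher and 0 lower (3.19%, beside 6.55% of all genes). Leaving out ASXL1-MT-KI 2 gave 3 higher and 2 lower (5.15%, beside 8.3%), wild type 1 also 3 and 2 (5.26%, beside 8.25%), ASXL1-MT-KI 1 gave 4 and 4 (8.42%, beside 10.1%) and ASXL1-MT-KI 3 also 4 and 4 (8.42%, beside 12.5%). With the replicate number as a block 14 rose and 10 fell (25.5%, beside 30.5% of all genes). Of 17 further IFT, dynein-2 and kinesin-2 genes 2 rose, with a list median of 0.00. Traf3ip1, the gene of the IFT-B subunit IFT54, rose to 15.9 ± 0.67 CPM in ASXL1-MT-KI cells, against 11.9 ± 1.28 CPM in wild type cells (log2 fold change 0.42 ± 0.09, adjusted p = 0.0160), a call lost without ASXL1-MT-KI 2 (adjusted p = 0.0764). Ttc30a1, a gene of IFT70, rose by 0.54 (adjusted p = 0.0422) but not in DESeq2 (adjusted p = 0.0555) or when any 1 library was left out (0.0554 to 0.163), and its near-identical copies make its counts uncertain. A list of 8 further genes held BBS genes and others that are not. Its single call in the main test was Rab23, a GTPase gene of hedgehog signalling and not a BBS gene. Rab23 rose to 5.91 ± 0.29 CPM in ASXL1-MT-KI cells, against 3.88 ± 0.54 CPM in wild type cells (adjusted p = 0.0150, edgeR). Its adjusted p was 0.0594 without ASXL1-MT-KI 2 and 0.0640 without wild type 1.

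Further transition zone genes gave the largest changes of the ciliary lists, with 2 of 21 higher and 3 lower and a median of 0.03. Over all genes 8.29% were higher and 7.69% lower, shares that also stand beside the list counts that follow. Dzip1l, a paralog of Dzip1, had 119, 89 and 97 counts in ASXL1-MT-KI libraries and 1, 0 and 1 in wild type libraries, a ratio of summed counts of 149.8 with a 95% counting interval of 41.1 to 1243. Anks6, the gene of an ankyrin repeat protein at the ciliary base, had 140, 123 and 144 counts in ASXL1-MT-KI libraries and 43, 22 and 26 counts in wild type libraries (log2 fold change 2.14 ± 0.25, adjusted p = 0.000616). Its call held in every alternative run, with a log2 fold change of 1.93 to 2.44. Iqcb1 (NPHP5) fell by 0.46 and Ahi1 (jouberin) by 0.40 on the log2 scale (adjusted p = 0.00518 and 0.0132), and Tmem237, named after its values were seen, by 0.38 (adjusted p = 0.0292). The Tmem237 call was lost without ASXL1-MT-KI 2 (adjusted p = 0.104), ASXL1-MT-KI 3 (0.0687) or wild type 1 (0.113). The Ahi1 call was lost without ASXL1-MT-KI 2 (adjusted p = 0.0526) or wild type 1 (0.0583).

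Of 18 basal body and appendage genes Cep164, which anchors the centriole to the membrane, rose by 0.18 (adjusted p = 0.0417), a call lost when any 1 library was left out (adjusted p = 0.0595 to 0.162) and without a filter on low counts (adjusted p = 0.0689). Among 7 genes of lipid-modified cargo transport, Unc119b, a carrier of myristoylated proteins, rose by 0.22 (adjusted p = 0.0286) and Arl2bp, a binding partner of ARL2, fell by 0.28 (adjusted p = 0.00773). The Unc119b call was lost without wild type 1 or 3 or any ASXL1-MT-KI library (adjusted p = 0.0580 to 0.125). Of 8 tested ciliary transcription regulators Myb, also a general progenitor factor, rose by 0.20 (adjusted p = 0.0174), lost without wild type 1 or 2 or ASXL1-MT-KI 1 or 3 (0.0528 to 0.0782). Rfx3, named after its values were seen, was at 8.99 ± 0.50 CPM in ASXL1-MT-KI cells and 11.8 ± 2.93 CPM in wild type cells and did not pass (adjusted p = 0.130). With the replicate block Rfx3 passed, lower in ASXL1-MT-KI cells (-0.38 on the log2 scale, adjusted p = 0.0146), and without wild type 2 as well (0.0435), but without wild type 3 its log2 fold change was -0.18 (adjusted p = 0.275). Of 36 genes of motile cilia 15 were tested, and none passed in edgeR without a block, DESeq2 or limma-voom, while 1 had an unadjusted p under 0.05 in edgeR; with the replicate block Ccdc40 passed, higher in ASXL1-MT-KI cells (adjusted p = 0.0489).

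The replicate block kept the 12 calls in these lists and added 12. Those named here were chosen for that reason, after their values were seen. Among other BBS genes Mkks and Trim32 were then higher and Ttc8, which encodes a further BBSome subunit, lower (adjusted p = 0.0238, 0.0130 and 0.0409 with the block; 0.0604, 0.0703 and 0.0731 without). Kif17, a kinesin-2 motor gene, was higher and Tulp3, an adaptor of IFT-A, lower (0.00417 and 0.0261 with the block; 0.0703 and 0.0597 without). Intu was higher (0.0281 with the block and 0.0811 without). Pde6d was higher and Cep83 and Rfx7 lower (0.0222, 0.0462 and 0.0353 with the block; 0.0671, 0.152 and 0.276 without). Rfx3 and Ccdc40 are described above.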

How the data were processed

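Libraries came from 200 ng of LK cell RNA, by the labels' protocols with the NEBNext Ultra kit, a kit without strand marking, and were sequenced in paired ends of 124 bp. HISAT2 2.0.4 and mm10 are named in the submitters' processing notes. How reads were counted, with which annotation and with what treatment of shared reads is not given in the sources used here. What the authors deposited is raw counts per gene symbol, without normalization, and all 24421 rows name a gene. With edgeR 4.0.16 (R 4.3.3), genes passing filterByExpr were scaled by TMM and tested for genotype alone by the robust quasi-likelihood F test, over 13548 genes. SE is the log2 fold change divided by the square root of F, and 95% intervals use the same t distribution. Lengths, coordinates and exon overlaps are from GENCODE M21; 96.1% of tested genes had a length. Members and lists were chosen with earlier results of these data known. All 45 members are accounted for, with values per library for those that passed and up to 2 others per complex; of other lists up to 4 genes that passed are named by p, besides those said to be named after their values were seen; 1 list gene is not reported here.

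No label says what a replicate number marks. Deviations from the group mean, over 11748 genes, correlated between same-numbered libraries at 0.349, 0.253 and 0.52, each above 0.1, so the numbers were taken as pairs; the main test has no block, and values with the block stand beside each call it changes. ASXL1-MT-KI 1 and wild type 2 also correlated, at 0.179. No replicates of a group agreed within sampling noise. Nothing says that each library was 1 animal, so p-values measure the spread between these libraries. On simulated counts for this comparison (13408 genes) the test recovered 72.3% of the changes of 1.5-fold, 89.1% of those of 2-fold and 93.5% of those of 4-fold. Of 177 calls 10 were false. The simulation changed 83, 55 and 62 genes by those folds, against 2165 genes called in the data. It drew each library independently and took genes of any level, so its rates need not hold for these members. DESeq2 1.42.0 and limma 3.58.1 were alternatives.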

Additional observations from a re-analysis of the deposited data

How the results depend on the processing

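The members called higher numbered 2, but 1 at a fold of at least 1.5; those called lower numbered 3, but 5 with the replicate block, which changed no other member's call, and 5 at an adjusted p under 0.10. Over all genes 2165 calls became 4132 with the replicate block and 887 at a fold of at least 1.5. On leaving out 1 library the members called higher ran from 0 to 2, those called lower from 1 to 3, all calls from 1128 to 2257 and the members' median, -0.03 in the main test, from -0.05 to 0.01. That median was 0.0222 with total counts and 0.031 without number 3 of both groups; that last run tested 45 members, Ift43 included, and over the same 44 as the main test the median was 0.0162. Ift43 also entered on leaving out ASXL1-MT-KI 3 or any wild type library. The cause of these shifts was not tested. Ift122 was called throughout. Signs turned for members that did not pass. With total counts the log2 fold change became positive for Ift20 (0.0004), Bbs2 (0.0302), Bbs7 (0.0205), Tmem67 (0.0243), Rpgrip1l (0.0481), Arl13b (0.0115), Wdr19 (0.0240) and Cep290 (0.0352), and with the stricter filter for Rpgrip1l (0.0001). Without number 3 of both groups the values that turned were 0.0014 for Ift172, 0.0479 for Bbs2, 0.0464 for Rpgrip1l, 0.1101 for Wdr19, 0.0724 for Cep290, 0.0310 for Ofd1. On leaving out 1 library the ranges were -0.0121 to 0.1926 for Bbs5, -0.0631 to 0.0395 for Rpgrip1l, -0.0877 to 0.0431 for Bbs2, -0.1245 to 0.0359 for Bbs7, -0.1433 to 0.0496 for Wdr19, -0.0970 to 0.0426 for Cep290, -0.1399 to 0.0347 for Ofd1, -0.1666 to 0.0382 for Dync2h1. Depth limits Tctn2, B9d1 and Ift43 most.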
